A study of Mus musculus with 8 samples.

Results

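The genes described here are 41 genes of the cell cycle and of DNA replication, out of 18251 genes measured by bulk mRNA sequencing of 8 subcutaneous mouse tumours. They were chosen by gene symbol from a list of known replication and division genes, with earlier results of these tumours known, and all 41 were found in the count table and passed the count filter. The list was divided by textbook function into 17 replication (G1/S) members, which act before or during DNA synthesis, and 24 mitotic (G2/M) members, which act in chromosome segregation and its preparation. All tumours grew under the skin of the armpit in male C57 mice, 7 weeks old, from MC38 cells, a colon cancer line of the same strain. The cells of both groups carried the TetOn-CXCL14 construct, which makes the chemokine CXCL14 when the antibiotic doxycycline (DOX) is given. The DOX group was given drinking water with 1 mg/mL DOX over 3 days, the control group was untreated, and each group held 4 mice with a tumour each. Tumours of DOX-treated mice lacking the construct were not analysed here, so effects of the drug and of CXCL14 cannot be told apart. The labels name 300 mm³ as the tumour volume both at the start of DOX and at harvest.

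Cells enter division when cyclin D and cyclin E kinases inactivate the retinoblastoma protein and release E2F transcription factors, which switch on the genes for origin licensing, the MCM helicase and nucleotide synthesis. Later, MMB-FOXM1 complexes act through CHR elements near the start site to switch on the genes for cyclin B, mitotic kinases and the spindle. RNA of both classes is therefore widely read as a measure of how many cells of a tumour are dividing. In bulk tumour RNA, fewer dividing cells and less RNA per dividing cell cannot be told apart.

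The promoters of 4 genes are shown as examples of the elements that were more common in the replication or in the mitotic members. In each class they were taken in order of p for DOX against control, among members whose window held the element. The windows run from 250 bases before to 50 after the start site, in GRCm38.p6 as given by RefSeq, 5′ to 3′ on the strand of the gene. Capitals mark E2F motifs (TTTGGCGC, TTTCCCGC or TTTCGCGC) in Mcm6, a subunit of the helicase, and Cdt1, a licensing factor. They mark CHR motifs (TTTGAA or TTTAAA) in Cdk1, the mitotic kinase, and Kif11, the motor that separates the spindle poles. Both strands were searched, and the first capitals of Mcm6 are a pair of E2F matches that overlap on opposite strands.
Mcm6 (chr1:128359656-128359955, minus strand): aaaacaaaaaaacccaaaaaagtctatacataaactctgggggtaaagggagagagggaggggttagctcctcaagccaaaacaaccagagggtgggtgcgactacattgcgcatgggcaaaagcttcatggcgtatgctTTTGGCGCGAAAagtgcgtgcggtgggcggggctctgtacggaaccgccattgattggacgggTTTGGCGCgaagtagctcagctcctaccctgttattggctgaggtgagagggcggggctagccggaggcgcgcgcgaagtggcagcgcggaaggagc
Cdt1 (chr8:122567765-122568064, plus strand): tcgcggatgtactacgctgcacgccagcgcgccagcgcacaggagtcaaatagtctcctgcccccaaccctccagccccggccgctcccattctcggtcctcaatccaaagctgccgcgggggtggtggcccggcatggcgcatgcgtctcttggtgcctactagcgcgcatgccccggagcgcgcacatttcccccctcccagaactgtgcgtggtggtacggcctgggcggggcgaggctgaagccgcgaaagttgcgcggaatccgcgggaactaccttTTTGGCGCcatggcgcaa
Cdk1 (chr10:69352863-69353162, minus strand): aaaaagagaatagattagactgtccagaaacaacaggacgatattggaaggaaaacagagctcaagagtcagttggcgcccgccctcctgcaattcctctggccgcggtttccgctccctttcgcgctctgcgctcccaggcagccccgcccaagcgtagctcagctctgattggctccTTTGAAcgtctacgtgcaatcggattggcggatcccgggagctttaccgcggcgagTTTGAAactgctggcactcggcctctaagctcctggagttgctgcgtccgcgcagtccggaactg
Kif11 (chr19:37376132-37376431, plus strand): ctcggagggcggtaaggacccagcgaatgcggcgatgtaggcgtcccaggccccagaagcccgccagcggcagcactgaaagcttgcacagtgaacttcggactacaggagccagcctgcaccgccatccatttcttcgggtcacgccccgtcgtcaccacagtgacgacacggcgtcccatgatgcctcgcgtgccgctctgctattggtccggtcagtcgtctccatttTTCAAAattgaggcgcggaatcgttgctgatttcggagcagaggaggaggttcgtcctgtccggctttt

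Promoter windows were found for 33 of the 41 members. An E2F motif was in 7 of the 14 replication promoters, in 1 of the 19 mitotic promoters, that of Cdk1, and in 3.9% of the promoters of all tested genes. A CHR motif was in 17 of the 19 mitotic promoters, in 4 of the 14 replication promoters and in 23.3% of the promoters of tested genes. In 15 of the 19 mitotic windows (78.9%) a CHR motif began within 50 bases of the start site, against 5.41% of the windows of tested genes. The nearest CHR motif began 15 bases upstream of the start in Cdk1, 19 in Kif11, 29 in Ube2c, 18 in Cdc20 and 23 in Top2a. CCAAT boxes, bound by NF-Y and searched by the letters CCAAT, were in 17 of 19 mitotic and 9 of 14 replication promoters, against 43.5% for tested genes. The letters describe the windows, and binding was not measured. The windows of Bub1 and Mybl2 held neither CHR form.

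None of the 41 members differed between DOX and control tumours past an adjusted p of 0.05. The outermost estimates were 0.865-fold for Mki67 and 1.15-fold for Ccne1, and the median log2 fold change (DOX over control) was -0.05 over the members and -0.01 over all 13436 tested genes. In edgeR's quasi-likelihood test with Benjamini-Hochberg adjustment over all tested genes, adjusted p-values of the members ran from 0.401 to 0.982. The same test called 0.00744% of all tested genes, and DESeq2 called 0.566% of the genes to which it gave an adjusted p and none of the 41 members. At an unadjusted p under 0.05, 2 members were lower in DOX tumours, Tpx2 and Aurkb, where 3.95% of all genes were, and 0 members were higher, where 7.65% of all genes were. Counted in either direction, the 2 members became 7, Ccne1 on the higher side among them, without control tumour 1, 1 without control tumour 4 or DOX tumour 4, 0 without control tumour 3, DOX tumour 2 or DOX tumour 3, and 3 without either of the remaining tumours. The groups overlapped in all 41 members, whereas 3.23% of all genes had every DOX tumour above, and 2.43% every DOX tumour below, every control tumour. The induced gene itself, Cxcl14, had 8.30 to 9.69 CPM (read counts scaled to library size with TMM) in control and 15.8 to 30.2 CPM in DOX tumours, without overlap. Its log2 fold change was 1.38 ± 0.20 (SE), with an adjusted p of 0.387 in edgeR and 1.06e-06 in DESeq2.

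The data bound the size of any difference closely. The 95% interval of the log2 fold change lay inside a 1.5-fold change in both directions for all 41 members, and inside a 1.25-fold change for 31. These intervals were not adjusted for the number of members. The lowest bound was -0.53 for Mki67, the gene of the proliferation antigen Ki-67, which is 0.694-fold on the linear scale. The highest bound was 0.44 for Ccne1, the gene of cyclin E1, or 1.36-fold. The members were well counted, with no value below 33.6 CPM, or about 615 counts, in any tumour.

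**Figure D1:**
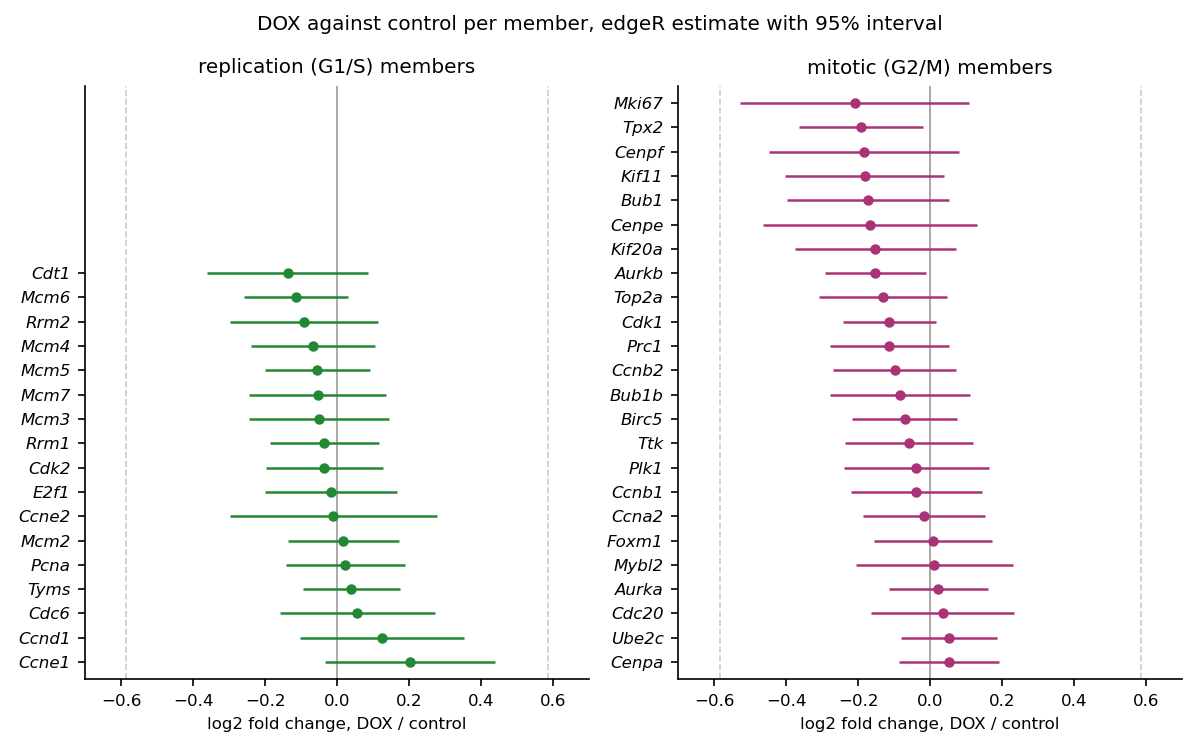
Log2 fold change of each member, DOX over control (x axis), with points for edgeR's estimate and lines for its 95% interval (4 tumours a group); replication members are on the left, mitotic members on the right, and dashed lines mark a 1.5-fold change. All intervals lie between the dashed lines, and those of Tpx2 and Aurkb exclude 0 before adjustment.

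Of the 17 replication members, 11 had a log2 fold change below 0 and 6 above, and the median was -0.04. The 6 genes of the MCM2-7 helicase, which unwinds DNA at the fork, lay between -0.11 and 0.02. Mcm6 (chromosome 1, 128331575 to 128359705) stood at 309, 266, 277 and 303 CPM in control tumours 1 to 4 and at 272, 269, 260 and 267 CPM in DOX tumours 1 to 4. Its DOX tumours lay within a narrow range at the level of the lower control tumours, and its log2 fold change was -0.11 ± 0.06 (SE, adjusted p = 0.514 in edgeR). The means were 289 ± 20.6 and 267 ± 5.10 CPM (SD, n = 4 each). Of the licensing factors, which load the helicase, Cdt1 (chromosome 8, 122568015 to 122573130) had 84.6, 67.0, 63.2 and 71.3 CPM in control and 62.9, 63.9, 60.0 and 73.3 CPM in DOX tumours. Control tumour 1 was the highest, and the other tumours of both groups were intermixed. The log2 fold change of Cdt1 was -0.14 ± 0.10 (SE, adjusted p = 0.619 in edgeR), or -0.05 without control tumour 1 and -0.20 without DOX tumour 4. Cdc6, its partner in loading, had 0.06 ± 0.10 (SE) on the same scale.

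Pcna, the sliding clamp of the polymerases, had a log2 fold change of 0.02 ± 0.07 (SE). Among genes of nucleotide supply, the ribonucleotide reductase subunits Rrm1 and Rrm2 had -0.04 ± 0.07 and -0.09 ± 0.09 (SE), and thymidylate synthase, Tyms, had 0.04 ± 0.06 (SE). The positive end of the class was held by cyclins of G1. Ccne1 (chromosome 7, 38097984 to 38107490), which drives the entry into S phase with CDK2, stood at 48.3, 35.8, 36.4 and 36.1 CPM in control and at 44.4, 41.8, 48.7 and 45.4 CPM in DOX tumours. All DOX tumours lay above control tumours 2 to 4, and control tumour 1 lay among the DOX tumours. The log2 fold change of Ccne1 was 0.20 ± 0.11 (SE, adjusted p = 0.479 in edgeR), and 0.16 without DOX tumour 3. Without control tumour 1 it was 0.32, a change that left it short of the threshold. Ccnd1 (chromosome 7, 144929931 to 144939831), the gene of cyclin D1, had 854, 666, 786 and 947 CPM in control and 894, 891, 839 and 923 CPM in DOX tumours. Its DOX values lay within the control range, and the log2 fold change, DOX over control, was 0.12 ± 0.10 (SE, adjusted p = 0.668 in edgeR), or 0.04 without control tumour 2 and 0.20 without control tumour 4. E2f1, Ccne2 and Cdk2 had -0.02 ± 0.08, -0.01 ± 0.13 and -0.04 ± 0.07 (SE).

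Of the 24 mitotic members, 18 had a log2 fold change below 0 and 6 above, and the median was -0.09. Tpx2 (chromosome 2, 152847964 to 152895321), which activates Aurora A on the spindle, stood at 211, 205, 224 and 241 CPM in control and at 212, 194, 189 and 176 CPM in DOX tumours. DOX tumours 2 to 4 lay below every control tumour, and DOX tumour 1 lay among the controls. Its log2 fold change was -0.19 ± 0.08 (SE, unadjusted p = 0.0323 and adjusted p = 0.401 in edgeR). Aurkb (chromosome 11, 69045624 to 69051664), the kinase of the chromosomal passenger complex, had 61.2, 64.9, 63.2 and 60.1 CPM in control and 61.1, 54.5, 53.7 and 55.2 CPM in DOX tumours. Here too DOX tumour 1 was the one within the control range. The log2 fold change of Aurkb was -0.15 ± 0.06 (SE, unadjusted p = 0.0361 and adjusted p = 0.405 in edgeR). Its partner Birc5, the gene of survivin, had -0.07 ± 0.07 (SE), and the kinases Aurka and Plk1 had 0.02 ± 0.06 and -0.04 ± 0.09 (SE).

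Cdk1 (chromosome 10, 69335146 to 69352912) had 115, 104, 113 and 114 CPM in control and 102, 101, 100.1 and 109 CPM in DOX tumours. Its log2 fold change was -0.11 ± 0.06 (SE, adjusted p = 0.467 in edgeR), and control tumour 2 lay among the DOX tumours. The A- and B-type cyclins were on the same side of 0, with -0.02 ± 0.08 for Ccna2, -0.04 ± 0.08 for Ccnb1 and -0.10 ± 0.08 for Ccnb2 (SE). Foxm1 and Mybl2, whose products activate mitotic genes, had 0.01 ± 0.07 and 0.01 ± 0.10 (SE).

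Of the spindle checkpoint genes, Bub1 had -0.17 ± 0.10, Bub1b -0.08 ± 0.09 and the kinase gene Ttk -0.06 ± 0.08 (SE). Cdc20 and Ube2c, which act in the ubiquitin pathway that starts anaphase, had 0.04 ± 0.09 and 0.05 ± 0.06 (SE). Ube2c was the least variable member, at 117, 105, 105 and 118 CPM in control and 116, 114, 113 and 118 CPM in DOX tumours, and its highest tumour had 1.12 times its lowest. Of the 6 kinetochore, motor and midzone genes, 5 were below 0, with a median of -0.16. Kif11 (chromosome 19, 37376382 to 37421863) had 99.3, 104, 129 and 126 CPM in control and 105, 109, 99.0 and 91.6 CPM in DOX tumours. Control tumours 3 and 4 were the highest and the other tumours overlapped. The estimate for Kif11 was -0.18 ± 0.10 on the log2 scale (SE, adjusted p = 0.495 in edgeR), or -0.12 without control tumour 3. Kif20a, a motor of the spindle midzone, and its midzone partner Prc1 had -0.15 ± 0.10 and -0.11 ± 0.07 (SE). The kinetochore genes Cenpe and Cenpf had -0.17 ± 0.13 and -0.18 ± 0.12 (SE), whereas Cenpa, the centromeric histone, had 0.05 ± 0.06 (SE).

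Mki67 and Top2a, the topoisomerase that untangles sister chromatids, are given in full because they are the usual markers of proliferation, although the rule for naming genes did not choose them. Mki67 had 356, 404, 502 and 523 CPM in control and 428, 438, 353 and 327 CPM in DOX tumours. Control tumours 3 and 4 were the highest, DOX tumours 3 and 4 the lowest and the others lay between, and the log2 fold change was -0.21 ± 0.14 (SE, adjusted p = 0.592 in edgeR). It was -0.12 without control tumour 4, -0.13 without DOX tumour 4 and -0.30 without control tumour 1. Mki67 was the most variable member, and its highest tumour had 1.60 times its lowest. Top2a had 648, 598, 682 and 701 CPM in control and 645, 636, 575 and 546 CPM in DOX tumours. DOX tumours 3 and 4 were the lowest of the 8, and its log2 fold change was -0.13 ± 0.08 (SE, adjusted p = 0.549 in edgeR).

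To compare the classes within each tumour, the mean log2 CPM of the members of a class was taken as its score. The replication score was 7.02, 6.90, 6.95 and 7.10 in control tumours 1 to 4 and 7.03, 6.98, 6.90 and 7.02 in DOX tumours 1 to 4. The groups were intermixed, with means of 6.99 ± 0.08 and 6.98 ± 0.06 (SD, n = 4 each) and a difference of -0.01. The mitotic score was 6.70, 6.77, 6.90 and 6.94 in control and 6.84, 6.77, 6.71 and 6.67 in DOX tumours. Control tumours 3 and 4 were the highest and DOX tumour 4 the lowest, while control tumour 1 was below 3 of the DOX tumours. The means were 6.83 ± 0.11 and 6.75 ± 0.07 (SD, n = 4 each), and their difference of -0.08 was smaller than the SD among control tumours and slightly larger than that among DOX tumours.

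The replication score minus the mitotic score was 0.31, 0.14, 0.05 and 0.15 in control and 0.19, 0.21, 0.19 and 0.35 in DOX tumours. DOX tumours 1 to 3 formed a narrow group just above control tumours 2 to 4, and control tumour 1 and DOX tumour 4 stood above all others. The means were 0.16 ± 0.11 and 0.23 ± 0.08 (SD, n = 4 each). Their difference of 0.07 was below the SD of either group, and it was 0.12 without control tumour 1, 0.03 without control tumour 3 and 0.03 without DOX tumour 4. No p is given for these scores because the members were chosen with results of these tumours known. The replication difference changed sign when control tumour 4 was left out, to 0.03, and when DOX tumour 3 was left out, to 0.02; the mitotic difference stayed below 0 in each of the 8 cases, between -0.12 and -0.04.

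**Figure D2:**
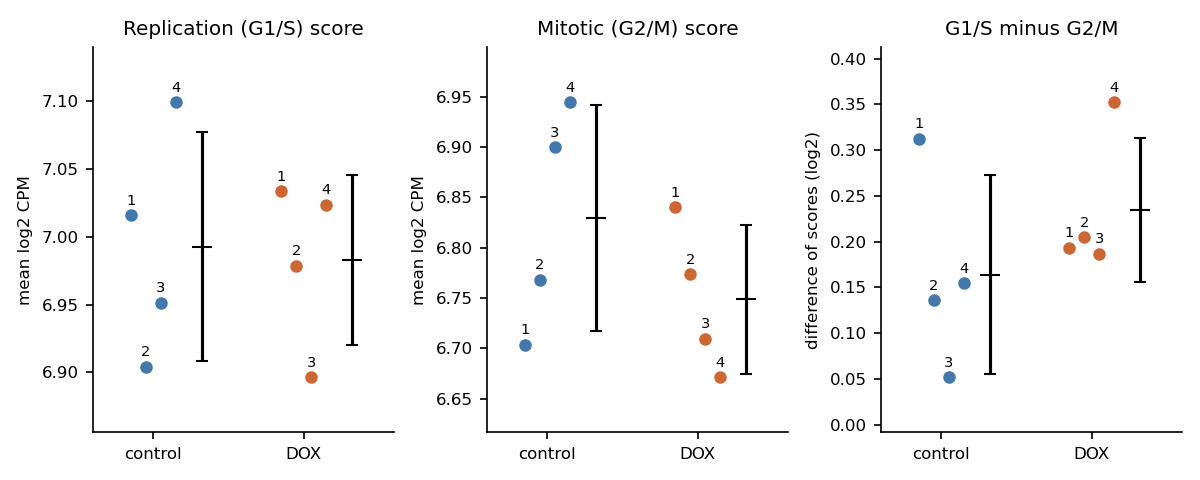
Replication (G1/S) score, mitotic (G2/M) score and their difference in each tumour (y axes, log2 scale), with tumour numbers beside the points and the mean with SD of 4 tumours as black bars. Control and DOX tumours overlap in all panels, and control tumour 1 and DOX tumour 4 have the highest differences, 0.31 and 0.35.

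Control tumour 4 had the highest level of 24 of the 41 members, 11 of them replication and 13 mitotic members. DOX tumour 4 had the lowest level of 13 members, 12 of them mitotic, and DOX tumour 3 of 11 members, 7 of them replication members. Control tumour 1 was lowest in 9 members. DOX tumour 1 was below the control mean in 17 of the 41 members, and DOX tumours 2 to 4 in 29, 33 and 27. Control tumours 1 to 4 were themselves below that mean in 28, 32, 15 and 2 members. The median over members of the highest tumour divided by the lowest was 1.24. Of all members, 29 had a fold change below 0 (70.7%, against 53.2% of all tested genes). This count was 23 when control tumour 4 was left out, with a median log2 fold change of -0.01. Without control tumour 1 it was 34, with a median of -0.08. The members vary together across tumours, so the share of 70.7% is not a count of separate observations.

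**Figure D3:**
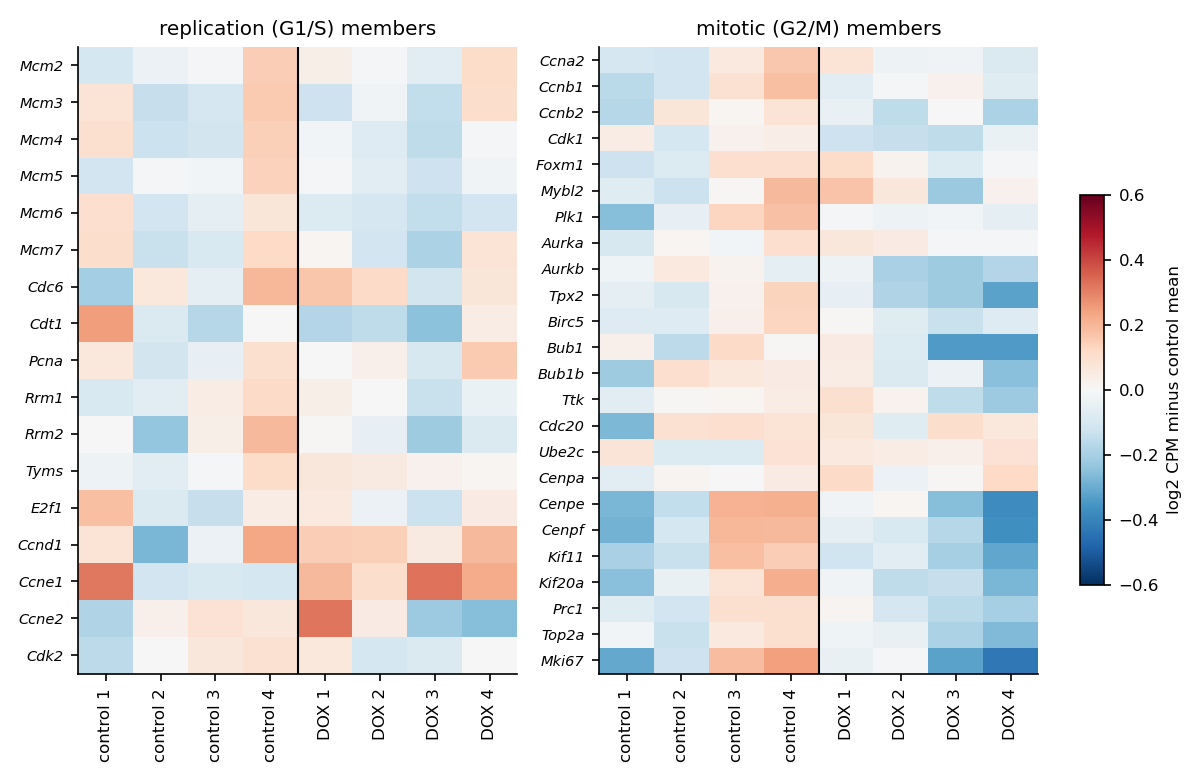
Log2 CPM of each member minus its mean in control tumours (colour), by tumour (columns) and member (rows), with a line between control and DOX tumours. Control tumour 4 is below the control mean in 2 of the 41 members, and DOX tumours 3 and 4 are lowest in Mki67, Bub1 and Top2a.

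Among the mitotic members, the fold change was related to transcript length. All tested genes were divided by the length of the longest transcript into 5 classes of about equal size. The 4 mitotic members in the class of the longest transcripts, from 5146 bases, were Cenpf, Mki67, Cenpe and Top2a, with log2 fold changes of -0.18, -0.21, -0.17 and -0.13. The 3 in the class of the shortest, up to 1812 bases, were Cenpa, Ccnb2 and Cdc20, with 0.05, -0.10 and 0.04. Across the 24 mitotic members, Pearson's r between log2 length and log2 fold change was -0.65 and Spearman's rho was -0.69, given as a description across genes that share the same 8 libraries. Across the 17 replication members r was -0.09 (rho -0.005), and across 12939 tested genes with a length it was -0.13 (rho -0.20). In the lists of further genes described below, r was -0.35 across 38 G2/M genes and -0.22 across 33 S-phase genes. The same gradient was present in all genes: the median log2 fold change was 0.03 in the class of the shortest transcripts and -0.06 in the longest. It was steepest in DOX tumour 4, where the medians against the control mean were 0.13 in the shortest and -0.14 in the longest class. Control tumour 1 ran the same way, from 0.05 to -0.04, and control tumour 3 ran the other way, from -0.03 to 0.04.

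The 12 mitotic members with longer transcripts had a median log2 fold change of -0.16 and the 12 with shorter transcripts one of -0.04. With the trend on length removed from each library, an alternative chosen after the data were seen, these medians were -0.11 and -0.06. Pearson's r between log2 length and log2 fold change across the mitotic members was then -0.34. The mitotic score difference was -0.08 with and without that step, the difference between the classes went from 0.07 to 0.06, and again 0 members passed the adjusted threshold. RNA integrity values were not used here, and the part of RNA quality in the gradient was not tested.

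**Figure D4:**
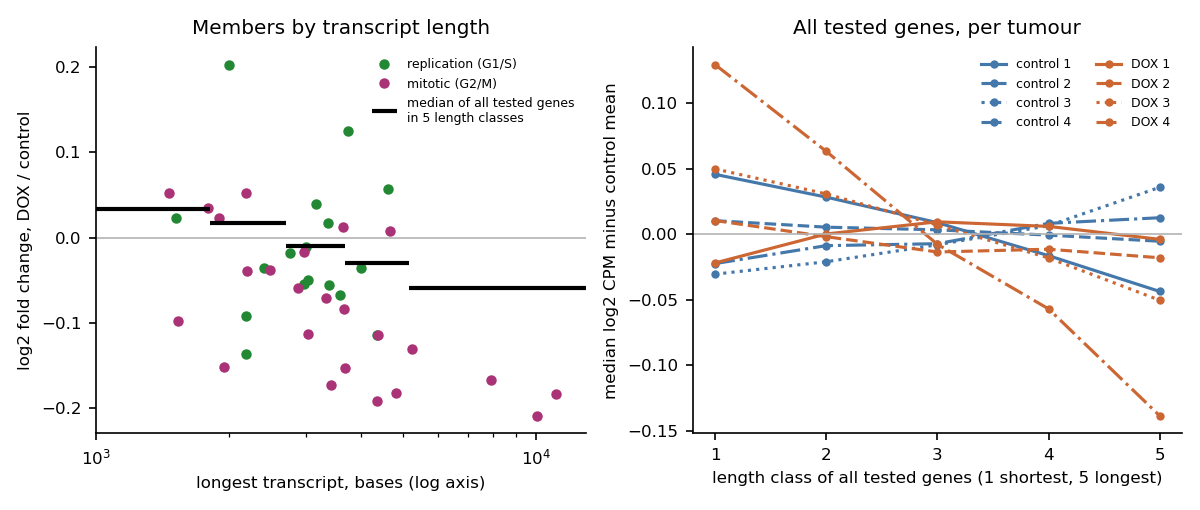
Left, log2 fold change of each member (y axis) against the length of its longest transcript in bases (x axis, log scale), with bars for the medians of all tested genes in 5 length classes, the outer bars being cut at the axis limits. Right, median log2 CPM minus the control mean of all tested genes in each length class, by tumour; DOX tumour 4 falls from 0.13 to -0.14, and on the left the 4 mitotic members of the longest class lie between -0.21 and -0.13.

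Markers of other cells and of hypoxia are given beside these values. None of them passed the adjusted test in edgeR, while DESeq2 called 3 T cell markers, 3 macrophage markers and 5 hypoxia genes, against 0.566% of all genes. The 10 T cell markers summed to 31.0 to 76.3 CPM in control and 77.3 to 251 CPM in DOX tumours. Of these markers, 10 of 10 had a fold change above 0, as had 6294 of the 13436 tested genes. The 7 macrophage markers summed to 1780 to 2113 CPM in control and 2435 to 4264 CPM in DOX tumours, again with 7 of 7 above 0. DOX tumour 4, the lowest in mitotic score, had the highest sum of both lists. Skeletal muscle markers summed to 2.57 to 52.7 CPM in control and 18.2 to 183 CPM in DOX tumours. The sums of fibroblast and endothelial markers overlapped, at 3958 to 7421 against 3752 to 6033 CPM and at 50.7 to 84.4 against 50.4 to 83.4 CPM. Those of neutrophils overlapped too, at 34.0 to 41.7 against 40.2 to 89.4 CPM over 2 of 4 markers above the filter, as did the B cell marker Cd79b, with at most 2.44 CPM in control and 1.60 to 3.90 CPM in DOX tumours. The list of 12 hypoxia genes had a score of 6.89, 6.87, 6.25 and 6.12 in control tumours 1 to 4 and of 6.22, 5.81, 5.70 and 5.59 in DOX tumours. All 12 hypoxia genes had a fold change below 0, as had 53.2% of all tested genes. In control tumours the higher hypoxia scores were found with the lower mitotic scores (tumours 1 and 2), whereas among DOX tumours the order of the hypoxia scores was that of the mitotic scores. The part of these cells and of hypoxia in the cell cycle values was not tested. Of the 7 epithelial markers fixed for the labelled colon cancer cells, only Cdh1 passed the count filter, at 4.77 to 19.8 CPM in control and 6.05 to 8.62 CPM in DOX tumours. Epcam, Krt8, Krt18 and Vil1 were under the filter, and Krt19 and Cdx2 were not among the genes with counts.

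The wider cell cycle was described with lists that hold none of the 41 members. The lists are not separate: 9 genes are in both the S-phase and the origin and fork list, 1 (E2f8) in both the S-phase and the RB and E2F list, and 1 (Cdc25c) in both the G2/M and the checkpoint list. Of 33 further S-phase genes of a widely used single-cell signature, 25 had a fold change below 0, with a median log2 fold change of -0.07, and 0 passed the adjusted test in edgeR or DESeq2 or an unadjusted p under 0.05. Among those with the smallest p-values, the helicase gene Blm had -0.27 ± 0.12 and the histone chaperone gene Nasp -0.17 ± 0.10 (SE). Of 38 further G2/M genes, 33 were below 0, with a median of -0.10, and 0 passed the adjusted test in edgeR or DESeq2, while 5 had an unadjusted p under 0.05, all lower in DOX tumours. Over all tested genes, 53.2% were below 0 and 3.95% were lower at that unadjusted p. The ubiquitin ligase gene G2e3 had 55.5, 53.7, 55.2 and 52.1 CPM in control and 48.6, 48.3, 41.2 and 38.4 CPM in DOX tumours. Its groups did not overlap, with every DOX tumour below every control tumour, as in 2 of the 38 genes and 2.43% of all tested genes. The log2 fold change of G2e3 was -0.30 ± 0.08 (SE, adjusted p = 0.387 in edgeR). The condensin gene Ncapd2 had -0.25 ± 0.08 and the kinetochore gene Ndc80 -0.21 ± 0.08 (SE).

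Among 36 genes of replication origins and forks, 27 were below 0, with a median of -0.04, and 0 passed the adjusted test in edgeR or DESeq2 or an unadjusted p under 0.05. The clamp loader gene Rfc1, the ligase gene Lig1 and the initiation factor gene Ticrr had -0.15 ± 0.07, -0.16 ± 0.07 and -0.21 ± 0.11 (SE). Among 16 genes of the RB and E2F families and the cyclin D kinases, 7 were below 0, with a median of 0.04. Of these 16, 0 passed the adjusted test in edgeR or DESeq2, and 1 had an unadjusted p under 0.05, higher in DOX tumours. Over all tested genes, 53.2% were below 0 and 7.65% were higher at that unadjusted p. Ccnd3, the gene of a cyclin D common in lymphocytes, had 0.28 ± 0.09 (SE, adjusted p = 0.387 in edgeR), with a count that was whole in 0 of 8 libraries. Rb1, the retinoblastoma gene, had 0.16 ± 0.07 (SE), with every DOX tumour above every control tumour, as in 3.23% of all tested genes. The repressor gene E2f7 had -0.16 ± 0.11 (SE). The 9 checkpoint kinase and CDC25 phosphatase genes had a median of -0.08, with 8 of 9 below 0 and 0 past the adjusted test in edgeR or DESeq2 or an unadjusted p under 0.05. Cdc25c, Atr and Wee1 had -0.21 ± 0.13, -0.11 ± 0.07 and -0.08 ± 0.08 (SE).

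The list with the largest median among the cell cycle lists was that of the 7 CDK inhibitors, at -0.27, with 6 of 7 on the lower side and 3 in which every DOX tumour lay below every control tumour. None passed the adjusted test in edgeR, and 3 had an unadjusted p under 0.05. Over all tested genes, 2.43% lay below every control tumour in this way, 3.95% were lower at that unadjusted p and 53.2% were below 0. Cdkn1b, which encodes p27, a brake on cyclin E and cyclin A kinases, stood at 78.4, 80.2, 73.1 and 68.3 CPM in control and at 63.4, 62.4, 60.4 and 62.1 CPM in DOX tumours. The DOX tumours were tightly grouped under all controls. The estimate was -0.27 ± 0.06 on the log2 scale (SE), and its adjusted p was 0.387 in edgeR and 0.0359 in DESeq2. It was the 1 gene of the cell cycle lists that DESeq2 called, and its adjusted p ran from 0.0359 to 0.796 over the alternatives. Cdkn1c, which encodes p57, had 9.89, 14.7, 10.4 and 11.4 CPM in control and 8.59, 7.16, 9.19 and 5.56 CPM in DOX tumours, and -0.60 ± 0.18 on the log2 scale (SE, adjusted p = 0.387 in edgeR). Cdkn2a, the locus of p16 and p19, had 26.8 CPM in control tumour 1 and 16.4 to 18.1 CPM in the other controls. In DOX tumours it had 14.9, 15.2, 14.0 and 11.2 CPM. Its log2 fold change was -0.52 ± 0.16 (SE, adjusted p = 0.387 in edgeR), or -0.34 without control tumour 1 and -0.60 without control tumour 2. Cdkn1a, the gene of p21 and a target of p53, had 0.02 ± 0.22 (SE). The remaining members of the list, Cdkn2b, Cdkn2c and Cdkn2d, had -0.34 ± 0.23, -0.04 ± 0.10 and -0.03 ± 0.09 (SE).

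Levels between members were compared per length, in FPKM as deposited. Ccnd1 was the most abundant, with a median of 231 FPKM over the 8 tumours, followed by Pcna at 212, Rrm2 at 132, Ube2c at 129 and Top2a at 123 FPKM. The lowest were Cenpf at 7.83, Cdc6 at 10.9, Tyms at 11.2 and Cenpe at 11.8 FPKM. Of the cyclins, Ccna2 and Ccnb1 had medians of 57.5 and 52.8 FPKM, Ccnb2 36.4, Ccne1 22.6 and Ccne2 16.2 FPKM. The MCM subunits, whose proteins form a hexamer with 1 copy of each, had unequal RNA levels, from 36.0 FPKM for Mcm5 and 45.5 for Mcm2 to 83.2 for Mcm7 and 92.0 for Mcm6. In 39 of the 40 neighbouring pairs of this order the ranges over tumours overlapped, so only the broad order is separated by the spread between tumours. Counts of 15 members, among them Mcm5, Ccnd1, Tyms, Tpx2, Kif11 and Cenpf, were whole in 0 of 8 libraries, so they are estimates and their levels are less certain. Why these counts were not whole was not tested.

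**Figure D5:**
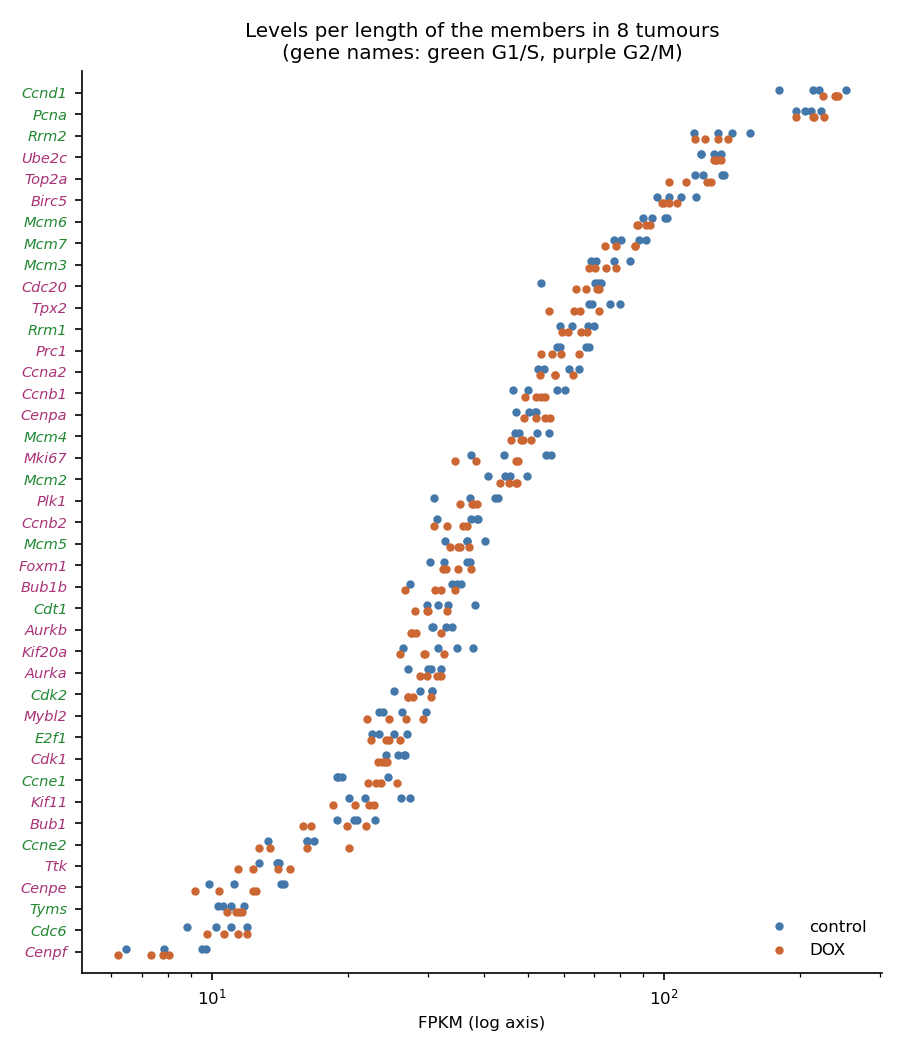
FPKM of each member (x axis, log scale) in the 4 control and 4 DOX tumours, ordered by the median over all tumours, with 1 point per tumour. Levels run from a median of 7.83 FPKM for Cenpf to 231 FPKM for Ccnd1, and the ranges of neighbouring members overlap in 39 of 40 pairs.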

How the data were processed

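RNA of 8 tumours was sequenced, 4 per group. Groups and tumour numbers were taken from the labels. Gene-level read counts and FPKM were deposited by the authors, with 1 column per tumour in each table. The deposited read counts are expected counts, since 64.87% of values were whole within 0.005, and were rounded here. FPKM values (a unit per gene length and library size), named so per the file headers, served for levels and as an alternative. HISAT, Bowtie2 and GRCm38.p6 are named in the submitters' processing notes; the sources used here give neither their roles and versions nor the counting tool and strand use. In a TPM table, 8 columns matched no sample and were not used.

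Totals ran from 18685975 to 19307481 counts per tumour. edgeR 4.0.16 in R 4.3.3 was used with filterByExpr (13436 genes kept), TMM and the robust quasi-likelihood F test, with Benjamini-Hochberg adjustment over all tested genes at 0.05. An SE is the log2 fold change divided by the square root of F, and the 95% interval uses edgeR's total (residual plus prior) degrees of freedom. Scores use log2 CPM with a prior count of 2. The code was tested on simulated data. Alternatives used RLE scaling, no filter, DESeq2 1.42.0, limma 3.58.1 on log2(FPKM + 1) and log2(FPKM + 0.1), a replicate block, a prior count of 0.5, other member sets, each tumour left out in turn and, chosen after the data were seen, an offset for transcript length (longest protein-coding transcript, GENCODE M21, GRCm38).

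The members and lists were chosen with earlier results of these data known. All members may be named; values per tumour were given for the 4 members of each class with the smallest p and the member of opposite sign with the smallest p, and from other lists up to 3 genes with the smallest p were named (1 is not reported here), with Mki67, Top2a and the other CDK inhibitors chosen after their values were seen. Promoters and gene positions are RefSeq's for GRCm38.p6, matched by symbol. Every pair of libraries differed by more than sampling noise (chi-square per degree of freedom of at least 5.25).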

Additional observations from a re-analysis of the deposited data

Results flagged for a closer look

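Dixon's test at 95% was applied to the 41 members and 3 scores in each group, 88 sets of 4 tumours, of which chance alone marks about 1 in 20. It marked 4. Ccne1 in control tumour 1 was 48.3 CPM, while the other control tumours had 35.8 to 36.4 CPM. Cdk1 in control tumour 2 was 103.5 CPM, against 113 to 115 CPM. Cdc20 in control tumour 1 was 95.6 CPM, against 122 to 124 CPM. The replication score minus the mitotic score was 0.35 in DOX tumour 4, against 0.19 to 0.21 in the other DOX tumours. DOX tumour 4 also had the steepest gradient of all genes with transcript length and the highest sums of T cell and macrophage markers, whose part in this value was not tested.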

How the results depend on the processing

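No member passed an adjusted p of 0.05 in any of the 15 alternatives. The median member log2 fold change was -0.08 to -0.01 when each tumour was left out in turn, the mitotic score difference -0.12 to -0.04, the replication score difference -0.04 to 0.03 and the difference between the classes 0.03 to 0.12. All of these moved by less than the SD between tumours under the 14 or 15 alternatives run for them. The median over members in place of the mean gave 0.02 for the replication score, a change of sign, -0.09 for the mitotic score and 0.11 for the difference between the classes, against 0.07 with the mean. Without Ccnd1, Ccna2 and Mybl2, the replication score difference was -0.02, the mitotic one -0.09 and the difference between the classes 0.07. Over all genes, 1 was called by edgeR, 79 by DESeq2 and 1 to 2 when each tumour was left out in turn, with 2 without DOX tumour 4. The number of members with an unadjusted p under 0.05 ran from 0 to 7 when tumours were left out, with 7 without control tumour 1. With the replicate number as a block, 1 gene and 0 members were called and the median member log2 fold change was -0.05, and 0 members had an unadjusted p under 0.05. The correlations of same-numbered tumours ran from -0.02 to 0.09, so the numbers were not taken as pairs. For Cdkn1b, DESeq2 passed the threshold (log2 fold change -0.28) where edgeR did not. The cause of these differences was not tested.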
